A study of Mus musculus with 12 samples.

Results

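Carbonic anhydrases are the zinc enzymes that interconvert carbon dioxide with bicarbonate and a proton, and 10 of their mouse genes (Car2, Car3, Car4, Car5b, Car6, Car8, Car9, Car11, Car12 and Car13) were followed here across all groups of the study. The genes were taken by symbol from a table of 32544 gene symbols, and all 10 were listed in it. The family was chosen by a measured value of these data, the rise of Car6 after the vesicles of CRIPTO-overexpressing cells, which was the largest among its members. Every value of that exposure therefore describes the choice. For these genes it is given without a p-value, and nothing is read from counts past the threshold there. The recipient cells were 3T3, an established mouse fibroblast line, harvested untreated or after 24 h with extracellular vesicles (EVs), the membrane-bound particles that cells release. Donors of the EVs were MDA-MB-468 cells, a human breast cancer line, as the control line (shCon), with CRIPTO knocked down (shCr) or with CRIPTO overexpressed (CrOE). CRIPTO is a cell-surface protein encoded in the mouse by Tdgf1. Each of the 4 groups had 3 libraries of poly(A)-selected RNA. Nothing in the labels says that these came from separate cultures, so p-values measure the spread between libraries, which may be technical, and all recipients were of 1 cell line.

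The family divides by where the proteins sit. Car2, Car3, Car7 and Car13 are cytosolic, Car5a and Car5b mitochondrial, and Car6 is the secreted enzyme, known from saliva and milk. Car4 and Car15 are held on the outer membrane by a lipid anchor, while Car9, Car12 and Car14 span the membrane with the catalytic domain outside, where they work with bicarbonate and lactate transporters in the control of pH. Car8, Car10 and Car11 are related proteins that lack the catalytic activity. Car9 is a well-known target of the hypoxia-inducible factors, and a shorter, intracellular form of Car6 has been described as stress-inducible under the control of CHOP, the product of Ddit3. Counts per gene symbol do not separate the forms of Car6.

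Promoter windows of 300 bases, from 250 before to 50 after the transcription start, were found in RefSeq (build GRCm38.p6) for 6 of the 10 genes. They are Car4, Car5b, Car6, Car9, Car11 and Car12. The windows printed are those of the member that was highest after CrOE EVs (Car6, chr4:150201086-150201385, minus strand), of the hypoxia-responsive member (Car9, chr4:43506776-43507075, plus strand) and of the member with the deepest fall after CrOE EVs among those that passed the filter (Car5b, chrX:164027961-164028260, minus strand). Each reads 5′ to 3′ on the gene's strand, and capitals mark ACGTG or GCGTG, the letters of the core hypoxia response element, on either strand.
Car6: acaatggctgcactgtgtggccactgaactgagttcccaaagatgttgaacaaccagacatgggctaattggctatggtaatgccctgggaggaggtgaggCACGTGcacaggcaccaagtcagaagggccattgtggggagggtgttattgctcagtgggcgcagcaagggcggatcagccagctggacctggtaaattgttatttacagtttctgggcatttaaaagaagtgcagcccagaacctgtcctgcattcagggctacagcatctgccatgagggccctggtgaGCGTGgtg
Car9: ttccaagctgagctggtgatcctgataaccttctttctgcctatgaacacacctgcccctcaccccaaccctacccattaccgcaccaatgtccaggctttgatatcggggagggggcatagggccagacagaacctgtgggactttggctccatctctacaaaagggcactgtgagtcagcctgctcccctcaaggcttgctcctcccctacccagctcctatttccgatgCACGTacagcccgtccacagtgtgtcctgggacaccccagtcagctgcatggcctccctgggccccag
Car5b: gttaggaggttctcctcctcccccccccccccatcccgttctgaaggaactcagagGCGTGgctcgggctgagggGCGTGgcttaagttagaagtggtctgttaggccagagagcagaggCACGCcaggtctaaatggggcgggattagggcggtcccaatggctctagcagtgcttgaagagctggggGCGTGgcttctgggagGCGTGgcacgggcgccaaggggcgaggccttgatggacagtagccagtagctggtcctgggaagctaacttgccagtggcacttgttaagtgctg
In the Car6 window the capitals before the start are a single CACGTG, an E-box whose letters hold ACGTG on both strands and which begins at base -149 from the start. CACGTG occurred in 7.15% of 32851 promoter windows of this length. GCGTG also lay once in the Car6 window after its start. The Car9 window held 1 ACGTG, on the opposite strand, beginning at base -18. The Car5b window held GCGTG 5 times and ACGTG 0 times, and the Car12 window held neither. ACGTG occurred in 19.6% and GCGTG in 32.4% of all windows, so these letters are common. TTGCATCA, the letters of an element bound by ATF4 with CHOP or other C/EBP proteins, was in 0 of the 7 windows of these 6 genes and in 0.895% of all windows. These matches describe the letters only.

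Library totals ran from 25960054 to 37774020 estimated counts, and 3 counts, used as the detection floor, correspond to 0.0795 to 0.114 CPM. CPM here are counts scaled to a common library size with TMM factors. Tdgf1 had 0 to 3 counts in every library, and it is not the gene that was altered, which lay in the human donor cells. After CrOE EVs the libraries stood far from the rest, with 73.7% of 14279 tested genes called against untreated cells. A list of 12 fibroblast markers summed to 20687 to 22253 CPM in untreated libraries. The sum was 25367 to 25723 CPM with shCon EVs, 16383 to 18386 CPM with shCr EVs and 8698 to 9076 CPM with CrOE EVs. Of the 12, Lum alone had at most 3 counts in each library of a group, that of CrOE EVs. Markers of epithelium summed to at most 3.42 CPM, with Epcam at 0 counts in every library, those of immune and endothelial cells to at most 10.8 CPM, and those of skeletal muscle to at most 2.74 CPM. Adipocyte markers summed to 207 to 243 CPM in untreated and 13.8 to 14.7 CPM in CrOE EV libraries, with Cidec and Lep at 0 counts throughout. The part of these shifts in the results below was not tested. In bulk RNA, fewer cells of a type and less RNA per cell cannot be told apart.

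Of the 10 genes, 6 passed the filter on low counts (Car5b, Car6, Car9, Car11, Car12 and Car13). Car6 passed through the CrOE EV libraries alone. Car2, Car3, Car4 and Car8 did not pass and are described by their counts.

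Car6, the secreted enzyme, was close to absent from these fibroblasts except after CrOE EVs. The untreated libraries held 0, 1 and 0 counts. After shCon EVs the counts were 8, 16 and 5, and after shCr EVs they were 2, 7 and 3. After CrOE EVs they were 1742, 2082 and 1838, or 55.2, 60.5 and 51.6 CPM. The CrOE EV libraries therefore did not come near any other library. The shCon EV and the shCr EV libraries all lay above every untreated library as well. All untreated counts, and the shCr EV counts of 2 and 3, were at or under the floor of 3 counts. The levels ran in the order untreated, shCr EVs, shCon EVs and CrOE EVs, and the neighbours shCr and shCon EVs overlapped.

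Car6 entered the fit only because of its CrOE EV libraries, which also set its average level there (3.86 on the log2 CPM scale), so its p-values between the other groups are not read. The summed counts were 29 after shCon EVs against 1 in untreated cells, a ratio of 27.3 with an exact 95% interval of 4.52 to 1114 that covers counting error only. After shCr EVs they were 12 against 1, a ratio of 9.96 (interval 1.47 to 426). Between shCr and shCon EVs, whose libraries overlapped, the ratio was 0.365 (interval 0.170 to 0.737, again for counting error only). These sizes rest on single libraries. The fitted log2 fold change was 4.37 with shCon EVs and 2.95 with shCr EVs, and without untreated replicate 2, which held the only untreated count, it was 6.40 and 4.97. The lowest values with a library left out were 3.85 and 2.27, without replicate 2 of shCon and of shCr EVs.

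The CrOE EV values of Car6 are those that chose the set. The mean was 55.8 ± 4.50 CPM (SD, n = 3) against 0.0127 ± 0.0220 CPM in untreated cells, where 5662 summed counts stood against 1. The ratio was 4503. Its exact interval of 808 to 177875, like those that follow, covers counting error only. The data fix the order of magnitude of this ratio only loosely. Against shCon EVs the ratio was 165 (interval 115 to 247), and against shCr EVs 452 (259 to 876). Without shCon EV replicate 2, which held the most Car6 counts of its group, the fitted log2 difference against shCon EVs moved from 7.35 to 7.88. Without shCr EV replicate 2 that against shCr EVs moved from 8.77 to 9.45. Even at this level Car6 stood at rank 4274 of 14279 tested genes by CPM in the CrOE EV libraries. No 31-base stretch of its annotated transcripts occurs in another gene of GENCODE M21, and no exon of another gene overlaps it. That search covered mouse transcripts in the sense direction only. The EV donors were human cells, and whether human RNA adds to these counts was not tested.

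**Figure D1:**
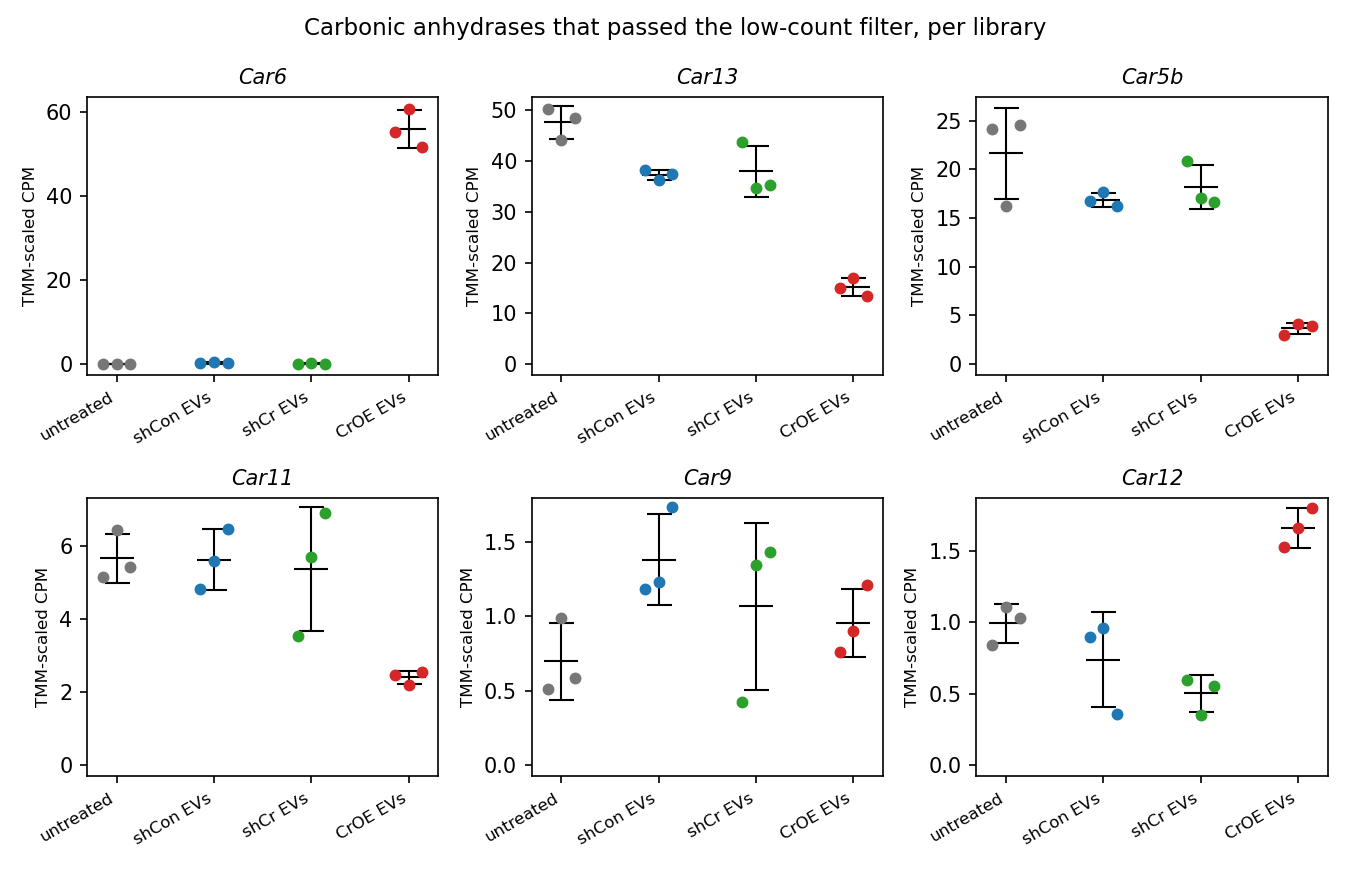
Each panel plots TMM-scaled CPM of 1 carbonic anhydrase in every library (points, 3 per group; bars show the mean and SD). Car6 sits at 51.6 to 60.5 CPM in the CrOE EV libraries and at most 0.531 CPM elsewhere, while Car13, Car5b and Car11 are lowest there.

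Car13, a cytosolic enzyme, was the main carbonic anhydrase transcript of the untreated fibroblasts, and it was lower in each EV group. Untreated libraries had 50.3, 44.0 and 48.4 CPM. After shCon EVs Car13 was at 38.2, 36.3 and 37.4 CPM, and after shCr EVs at 43.8, 34.7 and 35.3 CPM. Neither EV group overlapped the untreated group, although shCr EV replicate 1 lay just below the lowest untreated library. The fall was called after shCon EVs (log2 fold change -0.35, SE 0.098, adjusted p = 0.0128, edgeR) and after shCr EVs (-0.33, SE 0.097, adjusted p = 0.0179). The first was lost without untreated replicate 1 (adjusted p = 0.0536, with a range of 0.00117 to 0.0536 over 12 alternatives). The second was lost without untreated replicate 1 (0.0698), untreated replicate 3 (0.0541), shCr EV replicate 2 (0.0747) or shCr EV replicate 3 (0.0668), with a range of 0.000543 to 0.0747. Between shCr and shCon EVs Car13 was no call (log2 difference 0.023, SE 0.098, adjusted p = 0.923, edgeR). After CrOE EVs Car13 was at 15.0, 17.0 and 13.5 CPM, 3.14-fold below untreated cells (log2 fold change -1.65, SE 0.10).

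Car5b, the mitochondrial form found outside the liver, had its 3 lowest libraries after CrOE EVs. Untreated libraries were at 24.2, 16.2 and 24.5 CPM, with replicate 2 as low as the EV libraries. After shCon EVs Car5b was at 16.7, 17.7 and 16.2 CPM, and after shCr EVs at 20.8, 17.1 and 16.7 CPM. Neither difference from untreated cells was a call (log2 fold changes -0.36 and -0.25, SE 0.15 for each, adjusted p = 0.0736 and 0.203, edgeR). Untreated replicate 2 decided this. Without it the adjusted p-values were 0.00358 and 0.0123, against ranges of 0.00358 to 0.245 and 0.0123 to 0.498 over 12 alternatives. After CrOE EVs Car5b was at 3.04, 4.10 and 3.90 CPM, 5.86-fold below untreated cells (log2 fold change -2.55, SE 0.17). Of its 31-base stretches, 7.66% also occur in other genes, so a small part of its counts is uncertain.

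Car11, a secreted protein of the family without catalytic activity, was alike in 3 of the groups within their spread. It was at 5.16, 6.44 and 5.44 CPM in untreated cells, 4.83, 5.61 and 6.48 CPM after shCon EVs, and 3.56, 5.70 and 6.91 CPM after shCr EVs. The shCr EV libraries spread over both other groups, with replicate 1 the lowest, and neither EV group was called against untreated cells (log2 fold changes -0.0098 and -0.063, SE 0.20 for each, adjusted p = 0.978 and 0.829, edgeR). After CrOE EVs Car11 was at 2.47, 2.21 and 2.55 CPM, below all other libraries and 2.35-fold below untreated cells (log2 fold change -1.23, SE 0.21). Car13 and Car5b likewise had all 3 of their lowest libraries there. Called falls were common in that group, at 37.0% of all tested genes when set against the untreated libraries. How many genes had their 3 lowest libraries in the CrOE EV group was not counted, so this is not read as a trait of the family.

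The membrane-spanning enzymes Car9 and Car12 were rare in every group. Car9 had 14, 26 and 16 counts in untreated libraries, 33, 37 and 48 after shCon EVs, 12, 42 and 54 after shCr EVs, and 24, 31 and 43 after CrOE EVs. All shCon EV libraries were above the untreated ones, and shCr EV replicate 1 stood apart at the bottom. The difference after shCon EVs was nevertheless no call (log2 fold change 0.98, SE 0.40, adjusted p = 0.0732, edgeR). It became a call without untreated replicate 2 (0.0408), in a fit restricted to the pair of groups (0.0266) and with the replicate number as a block (0.0335), in a range of 0.0266 to 0.217 over 12 alternatives. The shCr EV libraries gave a log2 fold change of 0.64 (SE 0.41), which edgeR did not call (adjusted p = 0.245). Without shCr EV replicate 1 it was 1.00, and a call (0.0174, in a range of 0.0174 to 0.585). After CrOE EVs the log2 fold change of Car9 was 0.46 (SE 0.41), and these libraries overlapped the untreated ones. Over all 12 libraries Car9 ran from 0.423 to 1.73 CPM. Whether the ACGTG of its window bears on this level was not tested.

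Car12 had 23, 29 and 28 counts in untreated libraries and 25, 29 and 10 after shCon EVs, where it was no call (log2 fold change -0.41, SE 0.31, adjusted p = 0.324, edgeR). After shCr EVs it had 17, 11 and 21 counts, and its mean fell from 0.992 ± 0.136 to 0.503 ± 0.132 CPM (SD, n = 3). This was a call, with a log2 fold change of -0.97 (SE 0.32, adjusted p = 0.0322, edgeR). That call was lost without untreated replicate 2 (0.0824), untreated replicate 3 (0.0812), shCr EV replicate 2 (0.113) or shCr EV replicate 3 (0.0540), in a range of 0.0260 to 0.113 over 12 alternatives. After CrOE EVs Car12 had 48, 57 and 64 counts, more than any other library. Its level there was 1.66 ± 0.137 CPM, 1.67-fold above untreated cells (log2 fold change 0.74, SE 0.28), 2.23-fold above shCon EVs and 3.28-fold above shCr EVs. Besides Car6, Car12 was the only one of the 6 tested members that rose above all other libraries after CrOE EVs. Rises were common there, with 36.7% of all tested genes called higher than in untreated cells. How many genes rose above all other libraries was not counted.

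**Figure D2:**
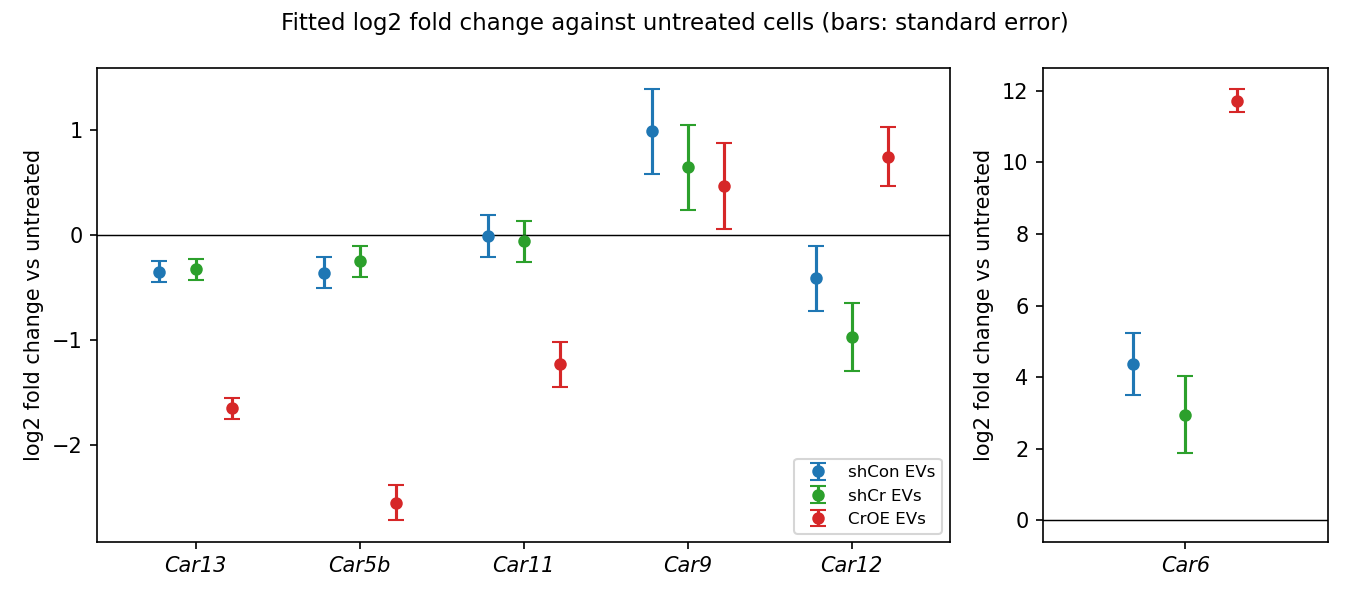
Fitted log2 fold changes against untreated cells are plotted for the 6 carbonic anhydrases that passed the filter (points, colours mark the EV group; bars show the standard error; Car6 has its own axis). Car13, Car5b and Car11 reach -1.65, -2.55 and -1.23 after CrOE EVs, while after shCon and shCr EVs the values of these genes lie between -0.36 and -0.0098.

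Car6 is left out of the counts between the other groups, since it passed the filter through the CrOE EV libraries alone. Among the other tested members, 1 was called after shCon EVs (Car13, lower). Of all tested genes 38.1% were called there, 18.0% higher and 20.2% lower. After shCr EVs 2 were called (Car12 and Car13, lower), beside 37.3% of all genes, 18.4% higher and 18.8% lower. With at least 10 counts required in every library, the counts were again 1 and 2. Between shCr and shCon EVs 0 were called by edgeR, beside 8.73% of all genes, 5.22% higher and 3.51% lower. With so few genes these shares lie near the background. For CrOE EVs 5 of the 6 tested members, Car6 included, were past the threshold against untreated cells (2 higher, 3 lower). Of all genes 73.7% were called in that comparison, 36.7% higher and 37.0% lower. The same numbers, 2 higher and 3 lower, were found against shCon EVs (background 72.6%, 36.5% higher and 36.1% lower) and against shCr EVs (background 73.9%, 36.9% higher and 37.0% lower), and nothing is read from them because these values chose the set. The comparisons share control libraries.

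Among members that failed the filter, Car2 had the clearest pattern. This fast cytosolic enzyme had 4, 3 and 4 counts in untreated libraries, 1, 7 and 3 after shCon EVs and 12, 11 and 12 after shCr EVs. The shCr EV libraries held more counts than any other, 35 in all against 11 in the untreated and 11 in the shCon EV group, a ratio of 2.64 to untreated cells (exact 95% interval 1.31 to 5.76) and of 2.81 to shCon EVs (1.39 to 6.13), for counting error only. Without a filter edgeR did not call either difference (adjusted p = 0.110 and 0.209). After CrOE EVs all 3 libraries had 0 counts of Car2. Car3, an enzyme abundant in muscle and fat, had at most 4 counts in any library. Car8, without catalytic activity, had 0 to 8 counts, with summed counts of 14, 17, 16 and 15 in the untreated, shCon, shCr and CrOE EV groups. Car4, the lipid-anchored enzyme, had 0 counts in all 12 libraries. At this depth Car4 was not detectable, and Car3 and Car8 were too sparse for a comparison. Car13, Car1, Car3 and Car2 follow each other on mouse chromosome 3 in GENCODE M21, so the most abundant member in untreated cells lies beside 3 genes with at most 12 counts in any library.

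The 6 other mouse carbonic anhydrases in the table were set beside the 10. Car1 had 0 counts everywhere, Car10 had 1 to 8 counts per library and Car5a 5 to 16. Car7, a cytosolic enzyme, was at 1.57 ± 0.382 CPM in untreated cells (SD, n = 3). It rose to 2.44 ± 0.353 CPM with shCon EVs (0.63 on the log2 scale, adjusted p = 0.0258, edgeR) and to 2.40 ± 0.385 CPM with shCr EVs (0.60, adjusted p = 0.0321). The first call was lost without untreated replicate 3 (0.111) or shCon EV replicate 3 (0.105), in a range of 0.0148 to 0.111. The second was kept in 7 of 12 alternatives, in a range of 0.0168 to 0.142, and was lost without untreated replicate 2 (0.0601), untreated replicate 3 (0.142), shCr EV replicate 1 (0.0581) or shCr EV replicate 2 (0.109) and in the fit restricted to the pair of groups (0.0981). Car7 was at 2.59 ± 0.229 CPM after CrOE EVs, a level that overlapped the other EV groups. The lipid-anchored Car15 rose with shCon EVs, to 0.896 ± 0.0637 CPM against 0.433 ± 0.112 CPM in untreated cells (1.04 on the log2 scale, adjusted p = 0.0146, edgeR), a call lost without untreated replicate 1 (0.0645, in a range of 0.00948 to 0.0645). It was at 1.71 ± 0.282 CPM after CrOE EVs, but 61.3% of its 31-base stretches occur in the overlapping gene Gm20518, so its counts are uncertain. Car14, which spans the membrane like Car9 and Car12, had 1 to 8 counts in the other libraries and 18, 14 and 20 after CrOE EVs, and its exons overlap Aph1a on the opposite strand.

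Levels of different carbonic anhydrases were compared per kilobase of annotated exon. In untreated cells Car13 was at 20.7 ± 1.39 CPM per kilobase, followed by Car5b at 3.40 ± 0.736 and Car11 at 2.95 ± 0.349, which do not differ beyond their spread. The next of the 10 members was Car9 at 0.303 ± 0.112 CPM per kilobase. Car13 thus made up 72.5% ± 0.825 of the summed level of the 16 symbols (SD, n = 3). After CrOE EVs Car6 came first at 30.7 ± 2.48 CPM per kilobase, then Car13 at 6.59 ± 0.753 and Car11 at 1.25 ± 0.0934. Car6 made up 73.4% ± 1.16 of the sum there and Car13 15.7% ± 0.775. The sum of all 16 was 28.6 ± 1.64 CPM per kilobase in untreated cells. With shCon EVs it was 24.4 ± 0.402, with shCr EVs 24.2 ± 1.48 and with CrOE EVs 41.8 ± 2.76. With Car6 left out, the CrOE EV sum was 11.1 ± 0.343 and the untreated sum 28.5 ± 1.65. This sum is mostly Car13, and it was lowest with CrOE EVs, while Car7, Car12, Car14 and Car15 had their highest means in that group.

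**Figure D3:**
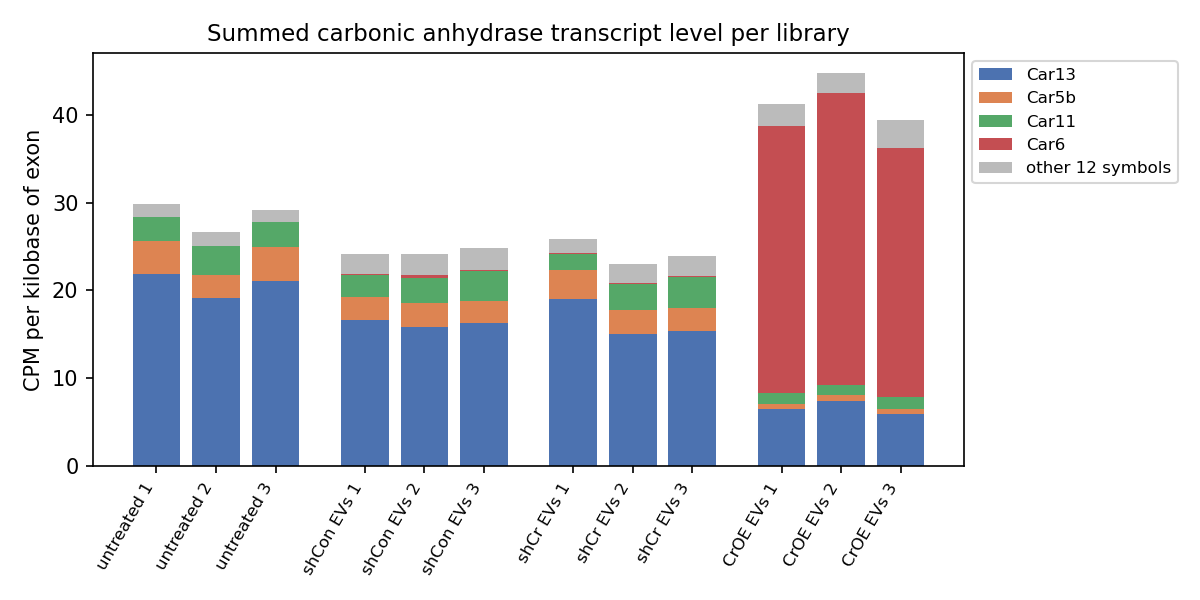
Stacked bars show, for each library, the summed level of the 16 carbonic anhydrase symbols in CPM per kilobase of exon, coloured by gene. Car13 fills most of each bar in 9 libraries, and Car6 fills 72.1% to 74.4% of the 3 CrOE EV bars.

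Genes with a pattern across the 12 libraries most like that of Car6 were found by the root mean square difference of mean-centred log2 CPM. The rise of Car6 after CrOE EVs, which chose the set, weighs most in this difference. A like rise in the genes found is therefore not read as a result. Among the 5 nearest were Sspo (1.11), Gm21036 (1.34), Taf7l (1.36) and Gsta1 (1.44). Sspo, the closest, was at 0.312, 1.01, 0.474 and 41.3 CPM in the untreated, shCon, shCr and CrOE EV groups. Gsta1, a glutathione transferase gene, was at 0.0499, 0.434, 0.718 and 17.7 CPM. Even for the closest gene the difference exceeded 1 on the log2 scale.

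Because a form of Car6 is known as a CHOP-dependent stress gene, a list of 16 genes of the CHOP, ATF4 and endoplasmic reticulum stress response was set beside it. Of these, 15 were tested. Ddit3, which encodes CHOP, was at 29.2, 34.5 and 28.4 CPM in untreated libraries, 66.7, 72.3 and 72.6 CPM after shCon EVs, 63.8, 64.9 and 74.7 CPM after shCr EVs, and 341, 359 and 367 CPM after CrOE EVs. All 3 EV groups stood above untreated cells. On the log2 scale the rise was 1.20 with shCon EVs (SE 0.083, adjusted p = 2.7e-07, edgeR), 1.14 with shCr EVs (SE 0.083, adjusted p = 3.7e-07) and 3.54 with CrOE EVs (SE 0.088, adjusted p = 1.7e-12). The groups with more Ddit3 than untreated cells were those with more Car6 counts, and both were highest after CrOE EVs, but 4 groups allow no test of that relation. The CrOE EV values of Car6 chose the set, and how many other genes have this order was not counted. Between shCr and shCon EVs Ddit3 was no call (log2 difference -0.057, adjusted p = 0.739, edgeR). Trib3, a CHOP target, was at 24.7 ± 6.13 CPM in untreated cells and higher in every EV group, with 90.3 ± 2.28 CPM for shCon, 55.3 ± 5.04 CPM for shCr and 309 ± 9.50 CPM for CrOE EVs. It was lower with shCr than with shCon EVs (log2 difference -0.71, adjusted p = 0.00337, edgeR). Atf3, of the same list, was higher with shCr EVs (0.65, adjusted p = 0.000318, edgeR). Between these groups 1 of the 15 tested genes was called higher and 2 lower, beside 5.22% and 3.51% of all tested genes. The median log2 difference of the list was -0.057. Over the list 9 genes rose and 1 fell after shCon EVs (median log2 fold change 0.63), 11 rose and 0 fell after shCr EVs (0.60), and 15 rose after CrOE EVs (3.45). Of all tested genes 18.0%, 18.4% and 36.7% were called higher in these comparisons, and 20.2%, 18.8% and 37.0% lower. The median of all tested genes was 0.0069, 0.020 and 0.0078.

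**Figure D4:**
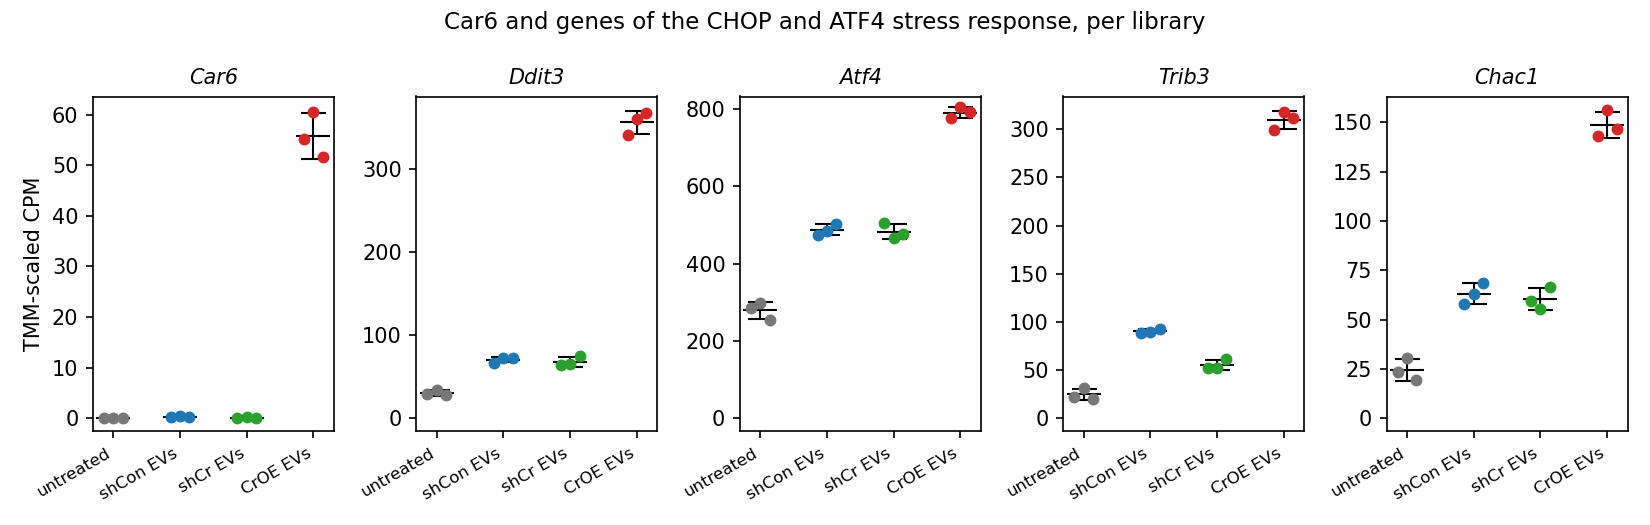
TMM-scaled CPM of Car6, Ddit3, Atf4, Trib3 and Chac1 is plotted per library (points, 3 per group; bars show the mean and SD; each panel has its own linear axis). Ddit3 stands at 28.4 to 34.5 CPM in untreated and 341 to 367 CPM in CrOE EV libraries, with the other EV groups between them.

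Hypoxia-inducible genes were looked at as the company of Car9 and Car12. Hif1a, which encodes the oxygen-regulated factor itself, was at 639 ± 70.6 CPM in untreated cells and fell in every EV group. Its level was 518 ± 6.17 CPM with shCon EVs (-0.30 on the log2 scale, adjusted p = 0.00965, edgeR), 363 ± 31.7 CPM with shCr EVs (-0.82, adjusted p = 5.6e-06) and 405 ± 16.1 CPM with CrOE EVs (-0.66, adjusted p = 7.2e-06). All 18 genes of the list were tested. They include Hif1a and Epas1, the genes of the factors themselves, so the counts below are not of induced genes alone. After shCon EVs 3 rose and 7 fell, after shCr EVs 5 rose and 3 fell, and after CrOE EVs 10 rose and 4 fell. Called in either direction were thus 10, 8 and 14 of 18, beside 38.1%, 37.3% and 73.7% of all tested genes. After CrOE EVs the glucose transporter gene Slc2a1 rose (log2 fold change 1.47, adjusted p = 8.2e-11, edgeR), as did Ndrg1 (2.11, adjusted p = 2.1e-11), while Epas1, which encodes the other main hypoxia-inducible factor, fell from 39.1 ± 5.52 to 1.18 ± 0.310 CPM (-5.05, adjusted p = 1.1e-11). Aldoc (-4.53, adjusted p = 3.8e-10, edgeR) and Adm (-2.85, adjusted p = 3.1e-11) fell too. With Hif1a and Epas1 they make up the 4 falls of the list there. The median log2 fold change of the list was -0.17 with shCon EVs, -0.091 with shCr EVs and 0.44 with CrOE EVs.

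Bicarbonate transporters, which carry the product of these enzymes across membranes, changed gene by gene. Of 14 listed, 6 were tested. Slc4a4, a sodium bicarbonate cotransporter, was at 11.2 ± 2.39 CPM in untreated cells. It rose to 31.5 ± 0.678 CPM with shCon EVs (1.49 on the log2 scale, adjusted p = 1.6e-06, edgeR) and to 38.0 ± 3.20 CPM with shCr EVs (1.76, adjusted p = 3.2e-07). After CrOE EVs Slc4a4 was at 9.83 ± 0.723 CPM, no call against untreated cells (adjusted p = 0.210, edgeR). Slc4a7 encodes another sodium bicarbonate cotransporter. It was no call with shCon or shCr EVs (adjusted p = 0.524 and 0.461, edgeR), and with CrOE EVs it stood at 49.9 ± 3.79 CPM against 21.3 ± 4.03 CPM in untreated cells, a called rise of 1.23 on the log2 scale (adjusted p = 5.0e-07). The anion exchanger Slc4a3 fell after CrOE EVs (log2 fold change -1.03, adjusted p = 0.00521, edgeR). Over the list 2 rose after shCon EVs, 2 rose and 1 fell after shCr EVs, and 3 rose and 2 fell after CrOE EVs. With 6 genes, these counts lie near the 38.1%, 37.3% and 73.7% of all tested genes called.

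Genes of proton and lactate export were the last list. Of 15 listed, 11 were tested, and 4 fell and 1 rose after shCon EVs, 4 fell and 2 rose after shCr EVs, and 8 fell and 1 rose after CrOE EVs. Of all tested genes 20.2%, 18.8% and 37.0% were called lower and 18.0%, 18.4% and 36.7% higher. Emb, a partner protein of monocarboxylate transporters, was at 158 ± 8.44 CPM in untreated cells. It fell to 71.7 ± 2.57 CPM with shCon EVs, 63.7 ± 11.1 CPM with shCr EVs and 22.1 ± 1.37 CPM with CrOE EVs (log2 fold changes -1.14, -1.31 and -2.84, adjusted p = 1.9e-06, 5.1e-07 and 6.1e-11, edgeR). Slc16a1, the lactate transporter MCT1, fell as well (log2 fold changes -0.60, -0.58 and -0.98, adjusted p = 0.000210, 0.000253 and 5.4e-07, edgeR). The median log2 fold change of the list was -0.16, -0.41 and -0.74 after shCon, shCr and CrOE EVs.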

How the data were processed

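Bulk RNA of 12 libraries was measured in 4 groups. The authors deposited estimated counts in 1 table, by gene symbol and without scaling between libraries, and 39.8% of its values were not whole. Per the submitters' processing notes, featureCounts and the build mm39 were used. The annotation, the strand setting and the reason for fractions are not given in the sources used here. Columns headed Cripto were assigned to CrOE by elimination, as the only group left.

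Values were rounded to whole numbers. The planned test had assumed raw counts and was kept. Genes were filtered with filterByExpr (minimum count 10), scaled by TMM and tested with edgeR 4.0.16 (R 4.3.3) by quasi-likelihood F-tests on all 12 libraries fitted with a mean for each group (8 residual degrees of freedom). Benjamini-Hochberg adjustment ran over all genes tested, and a call is an adjusted p under 0.05. SE was derived from the F statistic. Log2 CPM used a prior count of 2. Alternatives used DESeq2 1.42.0, other scaling and filters, a replicate block, models of 2 groups and each library left out. The scripts were tested on simulated data.

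Exon length, gene order and shared stretches came from GENCODE M21 (GRCm38), promoters from RefSeq (GRCm38.p6). Both differ from the build of the counts and were matched by symbol only. Members and lists were chosen with earlier results of these data known. Named were all carbonic anhydrases, Ddit3 and Hif1a, up to 8 called genes per pathway list by size of change whose average log2 CPM reached 1, and the 5 genes nearest to Car6. Some named genes are not reported here. PCR copies are counted like molecules, so counting error is all that intervals and floors describe.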

Additional observations from a re-analysis of the deposited data

How the results depend on the processing

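Counts of called members rest on few genes and few reads. They include Car6, whose p-values between groups other than CrOE EVs are not read. After shCon EVs, 2 members were called, 1 with at least 10 counts in every library (which leaves out Car6), and 1 to 4 with a library left out. After shCr EVs, 3 were called, 2 with at least 10 counts in every library, and 0 to 4 with a library left out. Between shCr and shCon EVs, 0 were called, 1 with DESeq2 (Car6, which is not read) and 0 with any library left out. Against CrOE EVs 5 were past the threshold, and 4 to 5 (untreated), 5 (shCon) or 5 (shCr) with a library left out. The counts over the 4 pathway lists stayed within 1.5 times throughout: 27, 28 and 7 called for shCon against untreated, shCr against untreated and shCr against shCon EVs, and 22 to 29, 25 to 34 and 7 to 9 with a library left out. Of 1712 alternative values of single list genes, 45 lost a call, 1 gained it and 0 changed direction. These values cover only the named list genes, chosen in each comparison as called and by size of change, with Ddit3 and Hif1a. That choice left little room for a gained call or a changed direction, so neither count is read as stability of the lists.

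Direction changed only in differences that were no call, each time with a library left out. The log2 differences then ran from -0.12 to 0.089 (Car11, shCon EVs against untreated), -0.29 to 0.16 (Car11, shCr against untreated), -0.28 to 0.17 (Car11, shCr against shCon), -0.092 to 0.082 (Car13, shCr against shCon), -0.62 to 0.013 (Car9, shCr against shCon) and -0.53 to 0.10 (Car9, CrOE against shCr). For Car14 they ran from -0.30 to 0.74 (shCon against untreated), for Car7 from -0.13 to 0.10 (shCr against shCon) and -0.016 to 0.21 (CrOE against shCr), and for Car5a from -0.50 to 0.12 (shCr against untreated), -1.01 to 0.063 (CrOE against untreated) and -0.79 to 0.22 (CrOE against shCr). The cause was not tested. The fitted log2 fold change of Car6 after CrOE EVs ran from 11.26 to 13.75, since 1 untreated count sets it.

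Same-numbered libraries deviated together (r over 0.1) in 5 of 18 pairs, with r from -0.20 to 0.32. A library correlated best with its own number in 5 of 18 cases. With 3 libraries per group, these values cannot show whether the replicate numbers pair the samples. With the replicate number as a block 3 members were called after shCon EVs (Car9 added), 3 after shCr EVs and 0 between them. Each CrOE comparison had 5, and Car6 is again among these counts without being read. Over all genes the block gave 5691 calls against 5447 after shCon EVs. Depth limits Car2, Car3, Car4 and Car8, and the size of every Car6 ratio.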
